A study of Mus musculus with 16 samples.

Results

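Removing the methyl-CpG-binding domain (MBD) from MBD3a was examined in mouse embryonic stem cells (ESCs) kept with leukaemia inhibitory factor (LIF), on 4 of the 16 arrays of the study. The members were chosen by their titles and not by any measured value, though with earlier results of these data known: they are the 4 arrays of MBD3a constructs grown with LIF. All 4 lines are male 129SV ESCs in which the isoforms Mbd3a, Mbd3b and Mbd3c were knocked out and a construct was then stably put back, so the arrays with the MBD carry the knockout too. The construct was MBD3a without its MBD (deltaMBD), MBD3a whole (Mbd3a), MBD3a without both its MBD and its coiled coil (deltaMBD&CC), or MBD3a without its coiled coil (deltaCC). The comparison was paired by coiled-coil status, which gave 2 pairs that share no array: deltaMBD minus Mbd3a, with the coiled coil present, and deltaMBD&CC minus deltaCC, with it absent. Other arrays served as context: the same 4 lines after 12 days without LIF, the knockout with an empty vector, the knockout with Mbd3b or Mbd3c, and the wild-type parent EBRTcH3. Each line stands as 1 array in a condition and the labels name no second culture, so p-values measure only the spread between these arrays. The sources used here do not give the vector, its promoter, the deletion boundaries or the number of clones per line.

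MBD3 is a scaffold subunit of NuRD, a complex that joins a nucleosome remodelling ATPase of the CHD family to the histone deacetylases HDAC1 and HDAC2. Unlike its relative MBD2, mammalian MBD3 has an MBD that binds methylated CpG weakly in vitro, and the coiled coil near the carboxyl end is the part through which MBD proteins of this kind bind GATAD2 subunits. In ESCs the complex is known for damping pluripotency genes and for being needed when cells leave self-renewal on LIF withdrawal. Germline genes are a well-known class of promoters kept silent in ESCs by DNA methylation and by E2F6-containing Polycomb complexes.

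Signals are log2 values made by the authors with RMA, so a difference of 1 is 2-fold in signal, and levels are not compared between genes. The 4 arrays had medians between 4.76 and 4.85 and pairwise correlations between 0.985 and 0.993. ESC markers were high on all 4, with means over 5 markers of 11.67 in deltaMBD, 11.71 in Mbd3a, 11.75 in deltaMBD&CC and 11.54 in deltaCC. Of 6 fibroblast or feeder markers, 4 lay above the 40th percentile of signal on all 4 arrays and 2, Dcn and Lum, on none; their mean was 5.41 in deltaMBD and 5.42 in Mbd3a, and 5.84 in deltaMBD&CC and 5.65 in deltaCC. The part of other cell types in the results was not tested. The mean over 5 trophectoderm markers was 6.17 in deltaMBD and 6.21 in Mbd3a, and 6.97 in deltaMBD&CC and 6.82 in deltaCC. That over 3 neural markers was 7.23 in deltaMBD and 7.37 in Mbd3a, and 6.30 in deltaMBD&CC and 6.52 in deltaCC. Array titles run in 2 blocks, 01 to 10 and 15 to 20. Mbd3a is title 02, whereas the other 3 arrays belong to the second block, so in the pair with the coiled coil the MBD and the title block cannot be told apart. The pair without the coiled coil lies within the second block.

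Mbd3 itself had a signal of 8.96 in deltaMBD and 9.09 in Mbd3a, and of 8.48 in deltaMBD&CC and 9.12 in deltaCC. The knockout with an empty vector read 7.00 and EBRTcH3 9.10, so all 4 construct lines lay above the empty vector line. The signal of the MBD-deleted lines was lower by 0.13 in the pair with the coiled coil and by 0.64 in the other (mean difference -0.39 ± 0.17 moderated SE, 2 pairs, limma adjusted p = 0.421). This SE comes from limma, which draws on the spread of all genes, and is not the spread of the 2 pairs alone. Probes inside a deleted stretch would also read lower; the sources used here do not give the probe positions, so transcript level and probe loss cannot be told apart.

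No gene passed the test across all genes. In limma with coiled-coil status as the pair term, 0 of 22170 tested genes had an adjusted p under 0.05 (0%), the lowest being 0.318, and 2963 genes (13.4%) had an unadjusted p under 0.05. Only 1 residual degree of freedom is left per gene. An exact permutation of 2 arrays against 2 that ignores the pairs cannot go below a two-sided p of 0.333. One that keeps the pairs has fewer arrangements, so its smallest p is larger still. On simulated arrays of this size, 0 of 100 genes changed by 2 log2 were called, so the count of 0 is not a measure of how little differs. When the moderation of the variance was allowed to follow signal level and to be robust to outlying genes (the trend and robust options of limma), 546 genes passed (2.46%), 429 higher (1.94%) and 117 lower (0.528%) in the MBD-deleted lines. What follows is therefore a description of differences that had the same sign in both pairs.

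A gene is counted here when it differed by at least 0.5 log2 with the same sign in both pairs. On that rule 396 of 22170 genes were higher in the MBD-deleted lines (1.79%) and 148 were lower (0.668%), while 74 passed the same size in opposite directions (0.334%). At 1 log2 the counts were 12 higher (0.0541%), 2 lower (0.00902%) and 3 opposite (0.0135%). Each pair alone held more: deltaMBD minus Mbd3a had 1345 genes higher (6.07%) and 939 lower (4.24%) by 0.5 log2, and deltaMBD&CC minus deltaCC had 1141 higher (5.15%) and 644 lower (2.9%). The split moved with the scaling: with each array centred on its median, 301 were higher and 208 lower. Both pairs went the same way for 60.9% of all tested genes, and the correlation of the pair differences across genes, which are not independent replicates, was 0.361 (Spearman 0.343). The other factor in the same 4 arrays was larger: deletion of the coiled coil gave 1014 genes higher (4.57%), 949 lower (4.28%) and 61 opposite (0.275%), with a correlation of 0.680 between its pairs. Just inside the size rule were Vtcn1 (0.51 and 0.50) and Klk1b9 (-0.50 and -0.54), and just outside it Mia (0.52 and 0.49) and Rsl1 (-0.74 and -0.49).

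**Figure D1:**
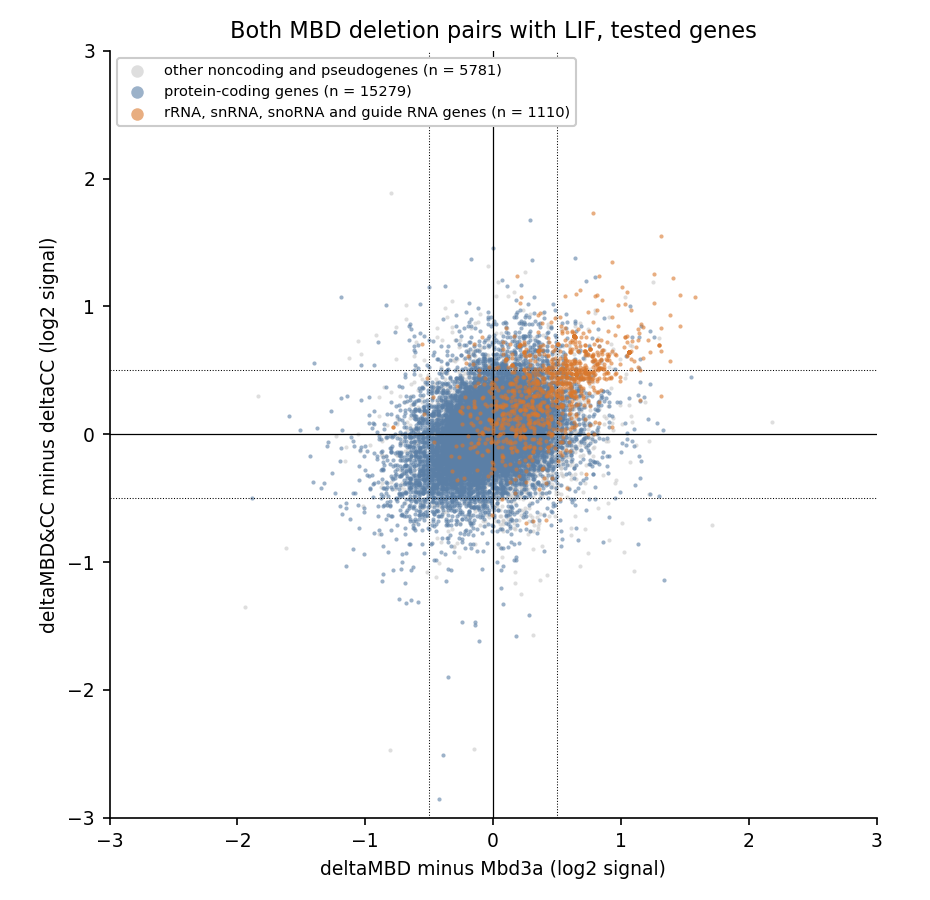
Difference of each tested gene in the pair with the coiled coil (deltaMBD minus Mbd3a, horizontal) against the pair without it (deltaMBD&CC minus deltaCC, vertical), in log2 signal, with dotted lines at 0.5 log2 on either side of 0. The short structural RNA genes (orange) lie mostly to the upper right, where 290 of 1110 pass the size rule.

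The largest class among the higher genes was short structural RNA, meaning ribosomal, small nuclear, small nucleolar and guide RNAs that shape ribosomes and spliceosomes. Of 1110 such genes tested, 290 were higher by the size rule (26.1%, against 1.79% of all tested genes), 0 were lower (0%) and 2 were opposite (0.18%). Their median difference was 0.50 in the pair with the coiled coil and 0.43 in the pair without it, against 0.02 and 0.04 over all tested genes. The trend and robust test put 358 of the 1110 past an adjusted p of 0.05 (32.3%), all of them higher.

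Ribosomal RNA genes stood highest, 51 of the 55 being copies of the 5S gene, which RNA polymerase III transcribes. Of the 55, 50 were higher by the size rule (90.9%, against 1.79% of all tested genes). Above 0 in both pairs were 53 (96.4%, against 35.5%), with medians of 1.06 and 0.64. The 5S copies are near-identical, so their probe sets are not separate measurements. The copy n-R5s162 had 9.01 in deltaMBD and 7.88 in Mbd3a, and 8.54 in deltaMBD&CC and 7.72 in deltaCC. Both MBD-deleted arrays lay above both others, as they did for 20.2% of all tested genes. The copies n-R5s151 (1.14 and 0.79) and n-R5s136 (1.21 and 0.74) gave differences of like size.

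Small nuclear RNA genes, whose products build the spliceosome, were above 0 in both pairs for 439 of 474 (92.6%, against 35.5% of all tested genes). As higher, 120 passed the size rule (25.3%, against 1.79%). How far these genes are near-identical copies was not examined, so their count and that of the whole class need not be of separate measurements. Rnu2-10, a U2 copy, had 10.95 in deltaMBD and 9.90 in Mbd3a, and 10.16 in deltaMBD&CC and 9.39 in deltaCC. Small nucleolar RNA genes, which guide the modification of ribosomal RNA, had medians of 0.32 and 0.30, and 113 of 551 passed as higher (20.5%, against 1.79%). MicroRNA genes did not share this: 2 of 325 passed as higher (0.615%) and their medians were 0.10 and 0.04. Long noncoding RNA genes gave 23 higher (1.25%) and 8 lower (0.435%) of 1841, both below the 1.79% and 0.668% of all tested genes. All genes that are neither protein-coding nor short structural RNA, 5781 in number, gave 54 higher (0.934%), 17 lower (0.294%) and 26 opposite (0.45%), and 28 higher (0.484%) and 7 lower (0.121%) with trend and robust moderation.

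Set against each gene's mean over all 16 arrays, the short structural RNAs stood 0.48 above it in deltaMBD and 0.23 above it in deltaMBD&CC, while the other 14 arrays ranged from -0.20 to 0.09. For ribosomal RNA genes the values were 0.95 in deltaMBD and 0.61 in deltaMBD&CC, against -0.79 to 0.29 elsewhere. The lowest of these was deltaMBD itself without LIF. The protein-coding genes of the same arrays moved little, -0.02 in deltaMBD and 0.04 in deltaMBD&CC. RNA quality and the recovery of short RNA on the columns are not given per array, and their part in this class was not tested.

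**Figure D2:**
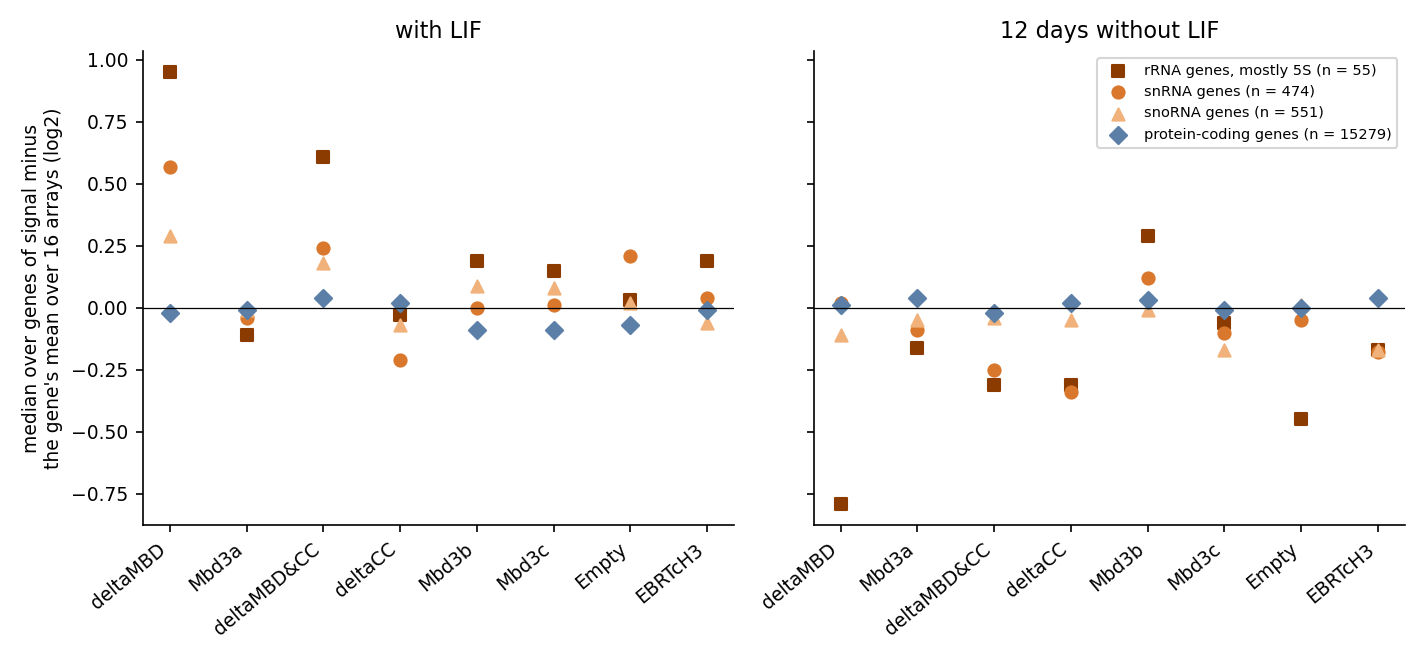
Median over the genes of each RNA class of the signal minus the gene's mean over 16 arrays (log2), for each array with LIF (left) and after 12 days without it (right). With LIF, the rRNA genes stand at 0.95 in deltaMBD and 0.61 in deltaMBD&CC, above all other arrays, and protein-coding genes stay near 0.

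Without the short structural RNAs the balance turned. Of 15279 protein-coding genes, 52 were higher (0.34%), 131 were lower (0.857%) and 46 were opposite (0.301%) in the MBD-deleted lines. The trend and robust test gave 43 protein-coding genes higher (0.281%) and 110 lower (0.72%). In bulk RNA a lower signal can come from fewer cells with the transcript or from less of it per cell, and the arrays do not tell these apart.

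Germline genes were among the lower ones. Ddx4, which encodes the germ-cell RNA helicase Vasa, had 7.24 in deltaMBD and 8.39 in Mbd3a, and 6.73 in deltaMBD&CC and 7.76 in deltaCC. Both MBD-deleted arrays lay below both others, as for 12% of all tested genes. The mean difference was -1.09 ± 0.10 (moderated SE, 2 pairs, limma adjusted p = 0.318, trend and robust adjusted p = 0.0193). Ddx4 also read 7.17 in the empty vector line, 7.68 in EBRTcH3, 7.53 with Mbd3b and 8.35 with Mbd3c, so the wild-type parent lay within the range of each pair.

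Boll, an RNA-binding protein of the DAZ family needed in male meiosis, had 5.53 in deltaMBD and 6.35 in Mbd3a, and 4.52 in deltaMBD&CC and 5.44 in deltaCC. Mael, a piRNA pathway protein that restrains transposons, had 5.68 in deltaMBD and 6.31 in Mbd3a, and 6.50 in deltaMBD&CC and 7.54 in deltaCC. For both genes the MBD-deleted and MBD-containing arrays overlapped across pairs, as the level also differed with coiled-coil status. Sycp1, the transverse filament of the synaptonemal complex, was near the floor: 4.15 in deltaMBD and 4.91 in Mbd3a, and 3.77 in deltaMBD&CC and 4.59 in deltaCC. Tdrkh, a Tudor protein of piRNA processing, had 4.68 in deltaMBD and 5.46 in Mbd3a, and 4.17 in deltaMBD&CC and 5.23 in deltaCC.

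Tex15 (-0.69 and -1.16), a meiotic and piRNA factor, Stk31 (-0.54 and -0.93), a testis kinase-like protein, and Hormad2 (-0.53 and -0.64), a meiotic chromosome axis protein, passed the size rule too and were singled out after their values were seen. The gene lists here and below were chosen with earlier results of these data known, so their shares are descriptions only. Of 23 genes on the germline and meiosis list, 21 were tested, and Sycp2 and Tex101 were too dim. By the size rule 4 were lower (19.0%), namely Ddx4, Mael, Sycp1 and Tdrd1, against 0.668% of all tested and 0.857% of protein-coding genes, and 0 were higher. Below 0 in both pairs were 15 of 21 (71.4%), against 25.4% of all tested genes and 29.7% of protein-coding genes. Sycp1 and, also among the 15, Slc25a31 reached the signal needed for testing only on the arrays with the MBD. For these genes a lower reading was thus favoured by the filter itself. The list's medians were -0.34 with the coiled coil and -0.07 without it. Members known from primordial germ cells did not share a direction: Nanos3 gave -0.35 and -0.49, Prdm1 0.03 and 0.44, and Dazl -0.21 and 0.22.

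The promoter windows of 4 of these genes are shown because MBD proteins and E2F6 are both tied to CpG-rich DNA, together with those of 2 higher genes for contrast. Each runs 5′ to 3′ on the gene's strand, 250 bases before to 50 after the RefSeq start on GRCm38.p6, with every CG in capitals.
Ddx4, chr13:112652261-112652560, minus strand: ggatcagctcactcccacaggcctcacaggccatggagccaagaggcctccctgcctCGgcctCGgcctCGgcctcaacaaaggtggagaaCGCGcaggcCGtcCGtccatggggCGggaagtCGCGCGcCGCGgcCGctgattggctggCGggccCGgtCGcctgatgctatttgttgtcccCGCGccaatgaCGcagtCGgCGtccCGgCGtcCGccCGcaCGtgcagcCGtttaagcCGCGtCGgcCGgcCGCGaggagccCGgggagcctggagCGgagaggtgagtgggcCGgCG
Sycp1, chr3:102936051-102936350, minus strand: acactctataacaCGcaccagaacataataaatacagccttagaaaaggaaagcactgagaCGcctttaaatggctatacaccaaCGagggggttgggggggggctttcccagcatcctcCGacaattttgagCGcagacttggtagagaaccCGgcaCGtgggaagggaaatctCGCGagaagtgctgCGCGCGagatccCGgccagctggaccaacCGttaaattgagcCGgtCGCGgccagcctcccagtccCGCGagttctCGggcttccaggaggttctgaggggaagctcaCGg
Mael, chr1:166238695-166238994, minus strand: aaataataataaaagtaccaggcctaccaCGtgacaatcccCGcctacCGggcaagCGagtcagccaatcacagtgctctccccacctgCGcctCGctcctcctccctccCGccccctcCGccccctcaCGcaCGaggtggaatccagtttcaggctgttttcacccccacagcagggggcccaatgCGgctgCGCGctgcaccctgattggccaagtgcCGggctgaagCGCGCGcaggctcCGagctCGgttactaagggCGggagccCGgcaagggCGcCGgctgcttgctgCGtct
Tdrkh, chr3:94412994-94413293, plus strand: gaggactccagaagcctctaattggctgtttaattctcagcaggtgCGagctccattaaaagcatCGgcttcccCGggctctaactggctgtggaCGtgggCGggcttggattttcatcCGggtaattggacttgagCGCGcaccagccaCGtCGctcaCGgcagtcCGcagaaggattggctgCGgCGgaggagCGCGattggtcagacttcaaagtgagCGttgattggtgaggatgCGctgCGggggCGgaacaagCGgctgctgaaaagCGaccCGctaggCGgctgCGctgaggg
Nxph1, chr6:8949769-8950068, plus strand: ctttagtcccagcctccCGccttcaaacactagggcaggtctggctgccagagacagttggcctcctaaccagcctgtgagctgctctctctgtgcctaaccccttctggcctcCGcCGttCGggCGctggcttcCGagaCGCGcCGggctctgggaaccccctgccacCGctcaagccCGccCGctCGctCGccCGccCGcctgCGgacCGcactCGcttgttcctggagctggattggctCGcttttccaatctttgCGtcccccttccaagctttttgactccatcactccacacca
Bnip3, chr7:138909457-138909756, minus strand: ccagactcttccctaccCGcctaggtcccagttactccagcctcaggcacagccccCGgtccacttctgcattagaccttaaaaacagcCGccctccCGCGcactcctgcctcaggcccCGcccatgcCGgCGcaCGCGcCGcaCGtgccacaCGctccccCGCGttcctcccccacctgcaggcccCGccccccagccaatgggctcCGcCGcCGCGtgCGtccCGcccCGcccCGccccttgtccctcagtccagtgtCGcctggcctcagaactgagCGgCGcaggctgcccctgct

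The Ddx4 window holds 38 CG pairs, those of Tdrkh, Mael and Sycp1 hold 25, 24 and 21, and those of Bnip3 and Nxph1 hold 27 and 21. The lower protein-coding genes as a set had a median observed over expected CpG ratio of 0.74 (109 of 131 matched to a window), the higher ones 0.44 (40 of 52), and all tested protein-coding genes 0.69 (12350 of 15279). The hexamer TCCCGC, the E2F6 core, was searched on both strands and was present in 47.7% of windows of the lower genes, 25.0% of the higher genes and 35.3% of all tested protein-coding genes, and in 20.0% of all 32851 windows of the table. The E-box CACGTG was in 16.5% of the lower, 17.5% of the higher and 10.7% of all tested protein-coding genes, and in 7.15% of all windows. On the germline list each was in 55.0% of 20 windows. Ddx4, Sycp1 and Mael hold both motifs and Tdrkh neither; among the higher genes, Bnip3 holds both and Nxph1 only TCCCGC. A match describes the letters of the window and does not show binding.

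**Figure D3:**
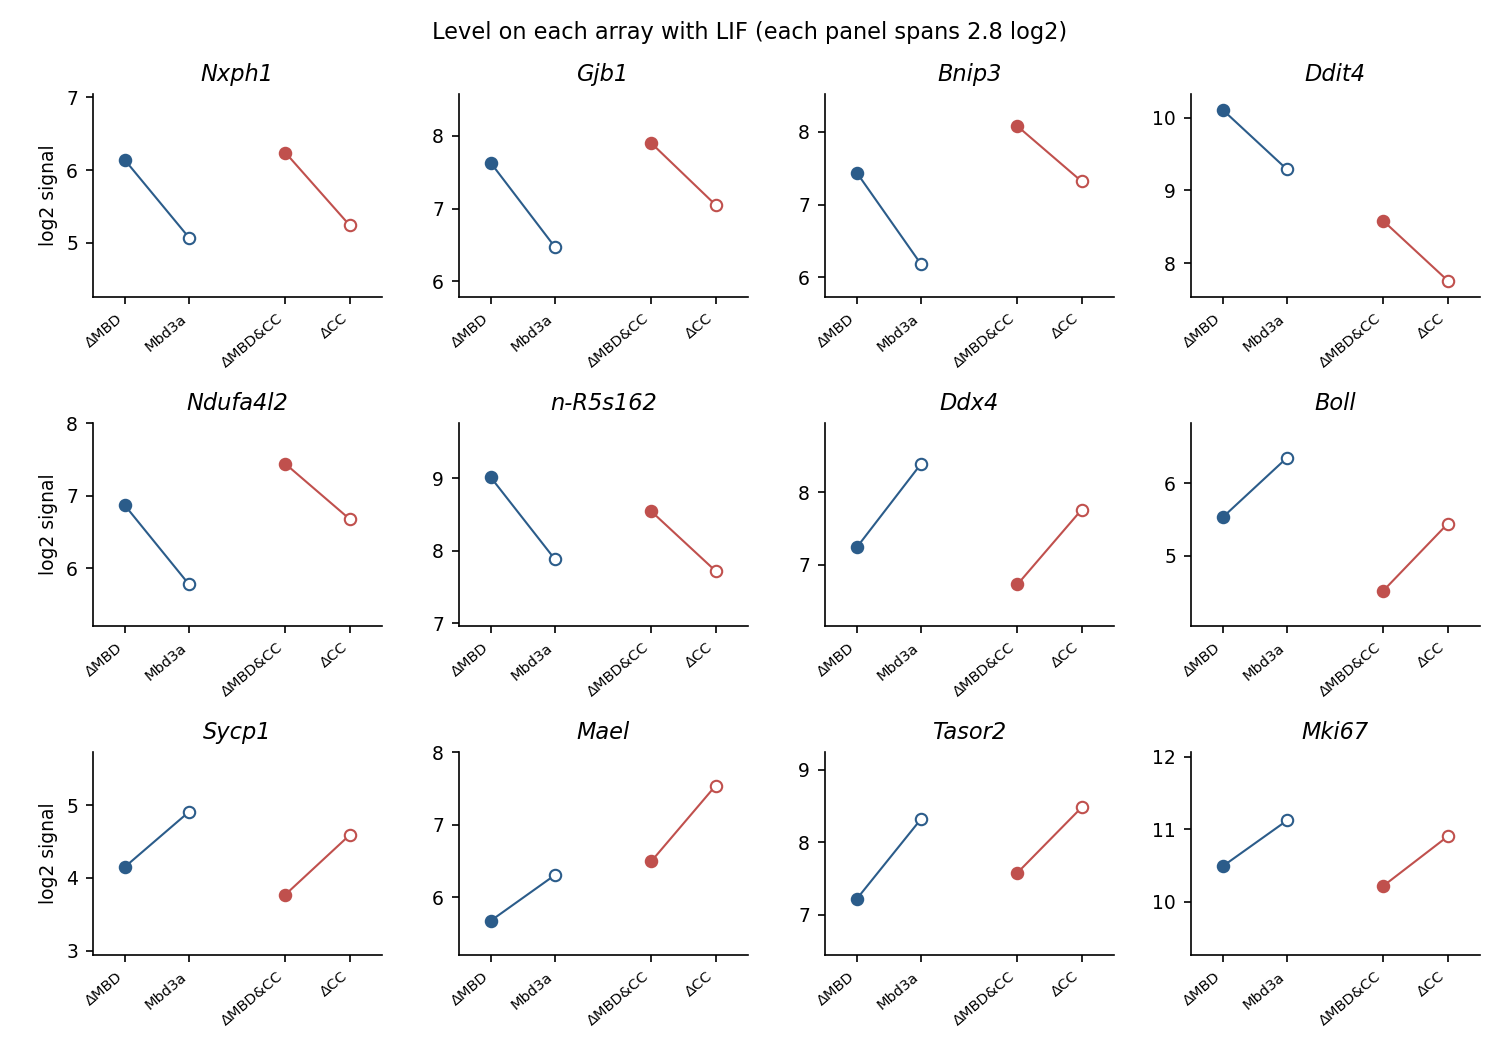
Log2 signal of 12 named genes on the 4 arrays with LIF, each MBD-deleted array (filled) left of its partner with the MBD (open), blue with the coiled coil and red without it. The 6 genes from Nxph1 to n-R5s162 are higher in both MBD-deleted arrays than in their partners and the 6 from Ddx4 to Mki67 lower.

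On the list of methyl-CpG readers and DNA methylation enzymes, 10 of 16 tested genes were below 0 in both pairs (62.5%, against 29.7% of protein-coding genes) and 0 were above, with medians of -0.27 and -0.15, although 0 passed the size rule. Tet1, which oxidises 5-methylcytosine, had 10.86 in deltaMBD and 11.47 in Mbd3a, and 10.95 in deltaMBD&CC and 11.37 in deltaCC. Tet2, its relative, had 10.09 in deltaMBD and 10.92 in Mbd3a, and 9.97 in deltaMBD&CC and 10.38 in deltaCC. Tet1 and Tet2 were singled out after their values were seen, as the list members with the lowest p. Their limma adjusted p was 0.319 for Tet1 and 0.332 for Tet2, and 0.0387 and 0.0469 with trend and robust moderation. Dnmt1, the maintenance methyltransferase, differed by -0.27 in each pair. Tasor2, a relative of the HUSH complex subunit TASOR, had 7.22 in deltaMBD and 8.32 in Mbd3a, and 7.58 in deltaMBD&CC and 8.48 in deltaCC. Among 16 NuRD genes, 3 were above (18.75%) and 6 below 0 in both pairs (37.5%), against 30.6% and 29.7% of protein-coding genes. Of the NuRD genes 0 passed the size rule, Gatad2b coming nearest at -0.51 and -0.40.

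Several abundant, long proliferation and transcription genes were lower in both pairs. Mki67, a coat protein of mitotic chromosomes, had 10.49 in deltaMBD and 11.12 in Mbd3a, and 10.22 in deltaMBD&CC and 10.90 in deltaCC. Cenpe (-0.72 and -0.63) and Cenpf (-0.61 and -0.52), both kinetochore proteins, Birc6 (-0.61 and -0.66), a giant inhibitor of apoptosis, and Polr2a (-0.82 and -0.63), the largest subunit of RNA polymerase II, were singled out after their values were seen. On the cell cycle list 1 of 20 genes, Mki67, passed the size rule as lower (5.0%, against 0.857% of protein-coding genes). Below 0 in both pairs were 10 of 20, against 29.7% of protein-coding genes, and above 0 were 3 (15.0%), against 30.6%. The medians were -0.06 and -0.17. Mcm5, a subunit of the replicative helicase, gave 0.05 in each pair.

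Gene length tracked the direction. The lower protein-coding genes had a median genomic span of 46.5 kb and the higher ones 9.2 kb, against 20.9 kb over all 15279. With genes cut into 10 bins of span, the 5 shorter bins held 36 higher and 29 lower genes, and the 5 longer bins 16 higher and 102 lower. The median difference was 0.09 and 0.10 in the shortest bin and -0.11 and -0.01 in the longest. Without LIF the shortest bin gave -0.07 and -0.05 and the longest 0.06 and -0.04, so the pair with the coiled coil sloped the opposite way and the other pair changed little with span. The difference between conditions was not tested. Length thus moved with the direction of the genes above; its part in each gene's difference was not tested.

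**Figure D4:**
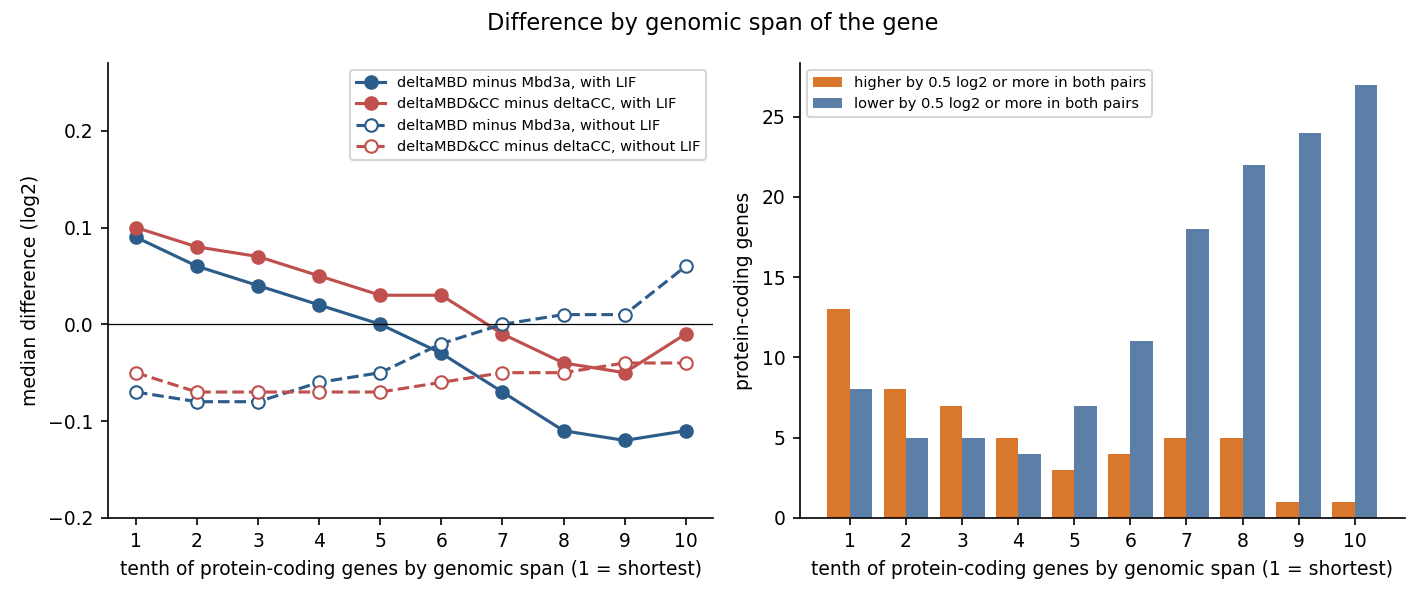
Left, median difference (log2) over protein-coding genes in each of 10 bins of genomic span for both pairs with LIF (solid) and without it (dashed). Right, number of protein-coding genes per bin that were higher or lower by at least 0.5 log2 in both pairs with LIF: the longest bin holds 1 higher and 27 lower genes.

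Bnip3, Ndufa4l2 and Adm, known targets of the hypoxia pathway, were among the 52 higher protein-coding genes. Bnip3, a mitophagy receptor, had 7.44 in deltaMBD and 6.18 in Mbd3a, and 8.08 in deltaMBD&CC and 7.32 in deltaCC; with EBRTcH3 (7.11) in place of Mbd3a, its mean difference was 0.55 and not 1.01. Ndufa4l2, a hypoxia-induced mitochondrial protein, had 6.87 in deltaMBD and 5.78 in Mbd3a, and 7.44 in deltaMBD&CC and 6.68 in deltaCC. In both genes the MBD-deleted arrays lay above the other arrays of the comparison, as for 20.2% of all tested genes. The empty vector line read 7.34 for Bnip3 and 6.88 for Ndufa4l2. Adm, a secreted vasodilator peptide, gave 0.64 and 0.89. Egln3 (0.74 and 0.47), an oxygen sensor, and Vegfa (0.53 and 0.49), the angiogenic growth factor, fell short of the size rule in the second pair. Adm, Egln3 and Vegfa were picked after their values were seen. On the glycolysis and hypoxia list 10 of 20 were above 0 in both pairs, against 35.5% of all tested genes, and 1, Bnip3, passed the size rule (1.79% of all tested genes were higher). The medians were 0.33 with the coiled coil and 0.04 without it. Slc2a1, the glucose transporter, gave 0.71 and -0.04 and Pgk1, a glycolytic enzyme, 0.63 and 0.04. Other members of the list were not higher in both pairs: Car9 gave 0.03 and -0.17, Ndrg1 -0.24 and 0.16, and Hk2 -0.06 and -0.51.

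Genes of the ATF4 stress response leaned the same way. Of 20 on the list, 12 were above 0 in both pairs (60.0%, against 30.6% of protein-coding genes) and 1 below (5.0%, against 29.7%). The medians were 0.21 and 0.48, and 1 gene, Ddit4, passed the size rule as higher (5.0%, against 0.34%). Ddit4, an inhibitor of mTORC1 that both hypoxia and ATF4 induce, had 10.11 in deltaMBD and 9.29 in Mbd3a, and 8.58 in deltaMBD&CC and 7.76 in deltaCC. The difference was 0.82 in each pair, though the pairs sat at different levels (trend and robust adjusted p = 0.0205). Phgdh, the first enzyme of serine synthesis, gave 0.41 and 0.76, and Cebpb, a stress-induced transcription factor, 0.40 and 0.91; both fell short of the size rule in the first pair and were picked after their values were seen. Atf4 itself gave 0.03 and 0.44. Some members had opposite signs, among them Asns (-0.19 and 0.27), Slc7a11 (-0.23 and 0.26) and Sesn2 (-0.19 and 0.14). The empty vector line read 8.74 for Ddit4 and 7.85 for Cebpb. Those values lay above deltaMBD&CC (8.58 and 7.71) as well as deltaCC (7.76 and 6.80). Feeding state and cell density of the cultures are not given per array, and their part in these lists was not tested.

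Other wide differences upward belonged to genes of neither list. Nxph1, a secreted ligand of neurexins, had 6.14 in deltaMBD and 5.07 in Mbd3a, and 6.24 in deltaMBD&CC and 5.24 in deltaCC (mean difference 1.03 ± 0.10 moderated SE, 2 pairs, limma adjusted p = 0.318). Nlrp4a, of an oocyte-expressed NLRP family, had 6.51 in deltaMBD and 5.64 in Mbd3a, and 5.53 in deltaMBD&CC and 4.62 in deltaCC. Gjb1, the gap junction protein connexin 32, had 7.63 in deltaMBD and 6.47 in Mbd3a, and 7.90 in deltaMBD&CC and 7.05 in deltaCC. Slc23a1, a vitamin C transporter, gave 1.23 and 0.81, but EBRTcH3 read 8.94, above both MBD-deleted lines (8.46 and 7.28). Gpx2, a glutathione peroxidase, had 7.05 in deltaMBD and 6.28 in Mbd3a, and 10.32 in deltaMBD&CC and 9.57 in deltaCC, so its levels differed more with coiled-coil status than with the MBD; with EBRTcH3 in place of Mbd3a its mean difference was 0.42 and not 0.76.

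Downward, mt-Tk, a mitochondrial lysine tRNA gene, differed by -1.94 and -1.35, with 7.57 in deltaMBD and 9.51 in Mbd3a, and 7.87 in deltaMBD&CC and 9.22 in deltaCC. It had no biotype in the annotation used, so this short RNA was not counted in the short structural RNA class, none of which passed as lower. Emp3, a membrane glycoprotein, had 6.06 in deltaMBD and 7.07 in Mbd3a, and 5.51 in deltaMBD&CC and 6.45 in deltaCC. Neto2, an auxiliary subunit of kainate receptors, gave -0.87 and -1.15. Rmdn1 (-0.86 and -1.09), Mfap3l (-0.86 and -0.87) and Hacd4 (-0.88 and -0.78), an enzyme of very long chain fatty acid synthesis, were at low signals of 3.46 to 5.14. All of them reached the signal needed for testing only on the arrays with the MBD, which favours a lower reading. Ncl, which encodes nucleolin, gave -0.93 and -0.77 on a probe set that read 5.66 to 7.10.

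The lineage and pluripotency lists showed little that was common to both pairs. Of 27 pluripotency genes, 5 were above and 5 below 0 in both pairs (18.5% each, against 30.6% and 29.7% of protein-coding genes). Pou5f1 gave 0.08 and 0.16, Nanog 0.10 and 0.38, and Sox2 -0.21 and 0.22. Klf4 (-0.63 and 0.16) and Tfcp2l1 (-0.59 and 0.09), both targets of LIF signalling, had opposite signs. The single pluripotency gene past the size rule was Dppa3 (1 of 27, 3.7%, against 0.34% of protein-coding genes higher). Dppa3, a maternal factor that protects DNA methylation at imprints, had 5.57 in deltaMBD and 4.73 in Mbd3a, and 4.35 in deltaMBD&CC and 3.77 in deltaCC. Its values in deltaMBD&CC and deltaCC lay below the 40th percentile of those arrays (4.36 and 4.33). The trend and robust adjusted p was 0.0794. Tfap2c, a trophoblast and germ cell transcription factor, gave 0.58 and 0.75, and the endoderm genes Srgn (0.54 and 0.61) and Dab2 (-0.53 and -0.53) went opposite ways. Vim (-0.58 and -0.63), the intermediate filament of mesenchymal cells, and Snai2 (-0.52 and -0.51), a repressor of epithelial genes, were the 2 of 23 mesenchyme and matrix genes past the size rule. That is 8.7% lower, against 0.857% of protein-coding genes. On that list 5 were above (21.7%) and 7 below 0 in both pairs (30.4%), against 30.6% and 29.7% of protein-coding genes, and the medians were -0.02 and -0.04. The imprinted genes Peg3 (-0.65 and -0.86) and Zdbf2 (-0.85 and -0.55), both expressed from the paternal allele, were also lower. They were 2 of 21 imprinted genes by the size rule (9.5%, against 0.857% of protein-coding genes). Below 0 in both pairs were 6 of 21 (28.6%), near the 29.7% of protein-coding genes.

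For the remaining lists, the shares over all protein-coding genes are 30.6% above and 29.7% below 0 in both pairs. Of 16 p53 targets, 9 were below 0 in both pairs (56.2%) and 2 above, with medians of -0.28 and -0.06. Gastrulation mesoderm genes were above 0 in both pairs for 9 of 17 (52.9%) and below for 2, with medians of 0.13 and 0.07. Neuroectoderm genes were below for 10 of 20 and above for 3 (medians -0.15 and -0.06), and endoderm genes below for 9 of 20 (45.0%) and above for 4 (medians -0.09 and -0.06). Interferon-inducible genes gave 6 above (37.5%) and 3 below of 16, with medians of -0.08 and 0.24. Oocyte-family genes gave 6 above (54.5%) and 2 below of 11. Nlrp4a was the single member past the size rule (9.1% higher, against 0.34% of protein-coding genes).

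The 2-cell-like genes differed almost wholly in the pair without the coiled coil. The list's medians were -0.17 with the coiled coil and -1.90 without it, and 8 of 9 tested genes were below 0 in both (88.9%, against 25.4% of all tested genes). Zscan4f, a telomere factor of the 2-cell stage, had 5.67 in deltaMBD and 6.09 in Mbd3a, and 4.35 in deltaMBD&CC and 7.20 in deltaCC. The deltaCC value was the highest with LIF, and the empty vector line read 3.07. In deltaMBD&CC Zscan4f lay just under the 40th percentile of that array (4.36). Zscan4a, annotated as a transcribed pseudogene, passed the size rule with -0.81 and -2.47 (11.1% of the list lower, against 0.668% of all tested genes). The Zscan4 copies are near-identical, so they are close to a single measurement, and the difference between pairs was not tested.

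**Figure D5:**
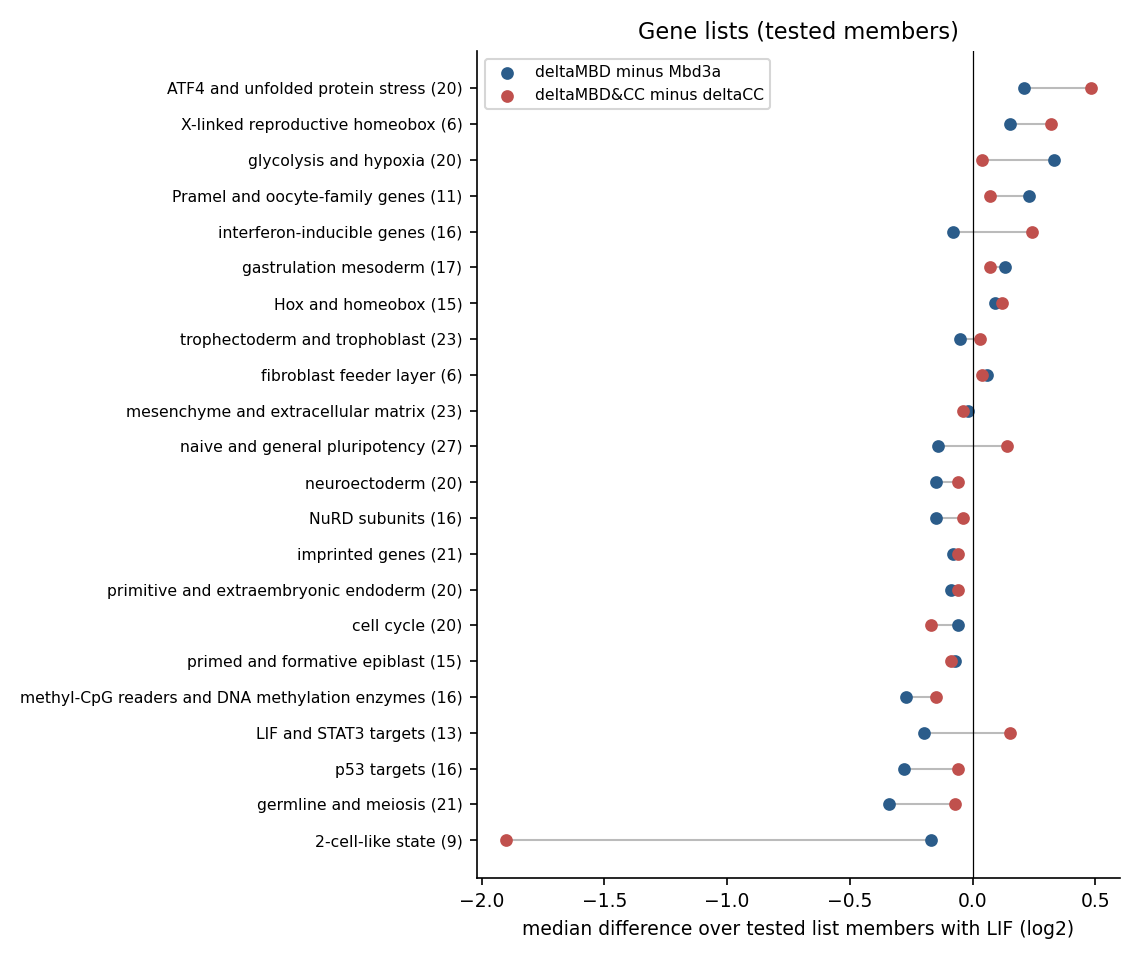
Median difference (MBD-deleted minus MBD-containing, log2) over the tested members of each list, for the pair with the coiled coil (blue) and without it (red), with the number of tested members in brackets. The germline list lies at -0.34 and -0.07, the ATF4 list at 0.21 and 0.48, and the 2-cell-like list at -0.17 and -1.90.

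The same lines after 12 days without LIF were measured on arrays that took no part in choosing the genes. There the size rule gave 44 genes higher (0.198%), 51 lower (0.23%) and 50 opposite (0.226%), and the pair differences correlated at 0.138 across genes; limma called 0 genes, with 1053 at an unadjusted p under 0.05 (4.75%). Of the protein-coding genes, 23 were higher (0.151%), 34 lower (0.223%) and 29 opposite (0.19%) without LIF. Of the 52 higher protein-coding genes with LIF, 12 were above 0 in both pairs without it, 14 were below 0 in both and 1, Nlrp4a (0.98 and 0.55), passed the size rule again. Of the 131 lower ones, 47 were below 0 in both, 29 were above 0 in both and 2, Arhgef26 and Ptgs2, passed again. Of the 290 short structural RNA genes, 66 were above 0 in both pairs, 93 below and 0 passed. Over all tested protein-coding genes 17.2% were above 0 and 35.8% below 0 in both pairs without LIF, and over all short structural RNA genes 31.6% and 22.7%, so the signs of the protein-coding members lay near those of all such genes. Ddx4 gave 0.08 and -0.16 without LIF. Emp3 gave -1.29 and -0.22, and Peg3 -1.35 and -0.31.

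Replacing Mbd3a by the wild-type parent EBRTcH3, whose MBD3 is endogenous, left 317 of the 396 higher and 91 of the 148 lower genes past the size rule, and 24 of 52 higher and 79 of 131 lower among protein-coding genes. This is no independent check, because the pair without the coiled coil is the same by construction and the deltaMBD array is shared. The exchange moved the mean difference by over 1.5 times for Slc23a1 (0.17, against 1.02 with Mbd3a), Bnip3, Gpx2, Tasor2 (-0.62, against pair differences of -1.10 and -0.90), Tdrkh (-0.47, against -0.92), Dppa3 (0.45, against 0.71), Tfap2c (0.36, against 0.67), Hormad2 (-0.30, against -0.58) and Tdrd1 (-0.28, against -0.54). Tdrkh, Hormad2 and Tdrd1 read 4.57, 5.32 and 5.27 in EBRTcH3, and 4.68, 5.35 and 5.27 in deltaMBD, so deltaMBD was not lower than the parent. Rmdn1 (3.15 in EBRTcH3, 3.46 in deltaMBD) and Sycp1 (4.23 and 4.15), both at low signal, moved too. Ddx4 (7.68 and 7.24), Boll (6.17 and 5.53) and Mael (6.44 and 5.68) stayed lower in deltaMBD than in EBRTcH3. EBRTcH3 and Mbd3a are of the same title block, so the exchange of these arrays leaves the block difference in place. Among the 52 genes named besides Mbd3, the limma adjusted p ran from 0.318 to 0.401. With trend and robust moderation 37 passed, against 2.46% of all tested genes. Most were chosen on these same arrays for their size in both pairs or after their values were seen. The count is thus no support for them.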

How the data were processed

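The values used are log2 signals per probe set from 16 single-colour Affymetrix arrays as the authors deposited them. Per the submitters' processing notes, RMA from affy was used; neither its version nor how probe sets were defined is given here. RMA corrects background, quantile normalizes all arrays together and summarizes probes, so a shift common to most genes would be removed. Array number, 1 per line and condition, limits the precision. Of 65770 probe sets, 27 held no value. Only the 30439 with a single gene symbol were used (2146 had several and 33158 none), named through GRCm38.p6 RefSeq tables (22653 matched by Entrez identifier, 827 symbols updated), which also gave biotype, span and promoter windows. The probe set with the highest mean signal stood for each of 30102 genes. A gene was tested where it lay above the array's 40th percentile on at least 2 of the 4 arrays.

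Groups came from the titles. limma 3.58.1 in R 4.3.3 fitted MBD status with coiled-coil status as the pair term, with Benjamini-Hochberg adjustment over all 22170 tested genes; differences are MBD-deleted minus MBD-containing. The pairing comes from the constructs, not from replicate numbers. The fit was tested on simulated data: with 1 and 2 log2 changes the sign was right for 100 of 100 genes each, 0 were called and 0 false calls were made. Named genes were Mbd3, the 12 higher and 12 lower with the largest smaller pair difference, and up to 3 members per list past 0.5 log2 in both pairs. Predicted genes, clones, microRNAs, small nucleolar RNAs and receptor segments were not named under the rule; genes said to be picked after their values were seen lie outside it, as do list members given for context. The members and the 22 lists, some of which share genes, were chosen with earlier results of these data known. Lists not described in the text had the medians plotted beside the others. Alternatives changed the filter, the normalization, the probe set choice, the moderation, the arrays in the fit and the size rule.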

Additional observations from a re-analysis of the deposited data

Results flagged for a closer look

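For 13 of the 52 named genes both pairs differed in the same direction with LIF and both differed in the opposite direction without it. Over all tested genes with the same sign in both pairs with LIF, 26.8% did so (3625 of 13509), and the share of the named genes is near that. The difference between the conditions was not tested. The mean difference with LIF is given first in each case, followed by the values of the pairs without LIF, with the coiled coil and then without it.

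Of these 13, 6 are hypoxia or stress genes picked in part after their values were seen; other members such as Trib3 (0.51 and 0.13 without LIF) and Egln3 (0.31 and -0.33) did not share the pattern. Bnip3 differed by 1.01 with LIF, and by -0.18 and -0.26 without it. Ndufa4l2 differed by 0.93, and by -0.09 and -0.55 without LIF. Vegfa differed by 0.51 (-0.14 and -0.07), Adm by 0.77 (-0.28 and -0.54), Ddit4 by 0.82 (-0.23 and -0.57) and Cebpb by 0.66 (-0.26 and -0.14). Nxph1 differed by 1.03 with LIF against -0.14 and -1.30 without.

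The short RNA genes n-R5s151 (0.96 with LIF, -0.44 and -0.04 without) and Rnu2-10 (0.91 with LIF, -0.07 and -0.15 without) showed the same pattern. In the opposite direction were Mfap3l (-0.86 with LIF, 0.59 and 0.14 without), Ncl (-0.85 with LIF, 0.54 and 0.07 without), Sycp1 (-0.79 with LIF, 0.66 and 0.09 without) and Cenpf (-0.56 with LIF, 0.41 and 0.20 without).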

How the results depend on the processing

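With trend and robust moderation 546 genes passed. Under the other alternatives that kept 2 arrays on each side, 0 passed. Fits that left out an array had no residual among the arrays with LIF. Their spread came only from the arrays without LIF, so no counts are given for them. Dropping the pair term (no replicate block) gave 0, with 1055 at an unadjusted p under 0.05. The fit with line as a random block could not be fitted, as no correlation could be estimated. A size rule of 1 log2 left 12 genes higher and 2 lower, and a rule of 0.3 log2 gave 1268 higher and 803 lower. Of the 396 higher genes, 106 were left without the short structural RNA genes and 52 among protein-coding genes alone, both counts added after seeing the data. Centring each array gave 301 higher and 208 lower, and a new quantile normalization 324 higher and 176 lower, against 396 and 148 as deposited. The size rule in both pairs has no value with an array left out or within the second title block. Of the named genes 37 passed under trend and robust moderation, which their choice on these same arrays favoured. That no named gene reversed with an array left out follows from how they were chosen, since each value is then that of the other pair, and at this size the test could not have lost a call. Low signals, as for Sycp1, Mfap3l and Rmdn1, carry little information on change.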
